A study of Mus musculus with 8 samples.

Results

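The genes described here are the protein-coding neighbours of Ino80e on mouse chromosome 7. They are the 57 protein-coding annotations of GENCODE M21 (GRCm38) that start between positions 126300000 and 127300000, apart from Ino80e itself, and all 57 were matched by Ensembl identifier among the 54446 identifiers of the count table. Of these, 27 are mouse counterparts of the recurrent human 16p11.2 interval, which runs from Spn to Coro1a, and 27 lie in the flanks. The other 3, Cdiptos, Pagr1b and Gm42742, lie between Coro1a and Spn but were not on the list of counterparts, and they are kept apart. Aldoa has 2 identifiers, ENSMUSG00000030695 and the low-count ENSMUSG00000114515 just upstream of it, here called upstream Aldoa, and both count among the 27.

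Poly(A) RNA of the medial prefrontal cortex was sequenced in 4 libraries of mice labelled as overexpressing Ino80e and 4 of mice labelled wild type. According to the design text, the risk gene was altered with an adeno-associated virus delivered to this region by stereotaxic surgery. The text does not give the promoter, the serotype or a control virus for the wild-type mice. Strain, sex and age are not stated, and whether the libraries of a group are separate animals is not stated, so a p-value reflects the spread between libraries, part of which may be technical. Library totals ran from 47700489 to 60490153 counts in the overexpression group and from 44762378 to 55379790 in wild type. Markers of excitatory neurons summed to 6976 to 7992 CPM (read counts relative to library size, scaled with TMM, the trimmed mean of M-values) in the overexpression group and 6527 to 7935 CPM in wild type. Markers of choroid plexus (Ttr, Kl, Folr1 and Kcnj13) summed to 12.6, 13.3, 100.1 and 8.48 CPM in overexpression replicates 1 to 4, against 12.4, 6.36, 101 and 1063 CPM in wild-type replicates 1 to 4, so that wild-type replicate 4 stood far apart in them. Results without that library are given beside the group medians.

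The human 16p11.2 interval is flanked by repeated sequence that misaligns in meiosis, so that the whole block is deleted or duplicated together, and such carriers have raised rates of autism, of schizophrenia and of changes in head size and body weight. The mouse keeps these genes side by side on chromosome 7. They have little in common in function: among them are a MAP kinase, a ubiquitin ligase adaptor, a calcium sensor of vesicle release, a glycolytic enzyme and a coronin of leukocytes. INO80E, in the middle of the block, belongs to the INO80 complex, which moves nucleosomes.

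Ino80e starts on the minus strand at the high end of its annotation (126850960 to 126862377) and overlaps a neighbour at each end. Hirip3 (ENSMUSG00000042606, 126861972 to 126865377, plus strand), whose product binds the histone chaperone HIRA, begins inside the first part of Ino80e and runs the other way. Doc2a (ENSMUSG00000052301, 126847416 to 126852705, plus strand), a calcium sensor of transmitter release, ends inside the last part of Ino80e. The exons of Doc2a share 1103 bases with those of Ino80e, and the exons of Hirip3 share 150. RefSeq has a pair of start sites for Ino80e on GRCm38.p6. The first lies 400 bases above the start of Hirip3, so that these starts face each other, and the second (126861463) lies below it, so that those point apart. The windows of Hirip3 and of the first start of Ino80e are shown because they lie at the centre of the locus. The promoter of Kctd13 is shown because Kctd13 had the lowest p of all the neighbours, and that of Maz because it is one of the richest in GC. Each window holds 250 bases before to 50 after a RefSeq start, 5′ to 3′ on the gene's own strand, with every match to the GC box GGGCGG or its reverse complement in capitals.
Ino80e (chr7:126862323-126862622, minus): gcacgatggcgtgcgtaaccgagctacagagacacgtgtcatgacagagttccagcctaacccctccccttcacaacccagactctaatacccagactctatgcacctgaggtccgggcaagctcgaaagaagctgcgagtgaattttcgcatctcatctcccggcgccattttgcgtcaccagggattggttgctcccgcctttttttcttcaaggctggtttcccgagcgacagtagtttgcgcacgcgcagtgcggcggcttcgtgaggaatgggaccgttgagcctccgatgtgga
Hirip3 (chr7:126861722-126862021, plus): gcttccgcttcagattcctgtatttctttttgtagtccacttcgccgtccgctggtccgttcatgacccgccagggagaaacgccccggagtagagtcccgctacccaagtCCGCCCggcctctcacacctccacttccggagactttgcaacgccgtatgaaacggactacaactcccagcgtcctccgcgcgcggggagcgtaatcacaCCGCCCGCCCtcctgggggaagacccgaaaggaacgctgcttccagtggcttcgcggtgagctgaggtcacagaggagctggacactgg
Kctd13 (chr7:126928629-126928928, plus): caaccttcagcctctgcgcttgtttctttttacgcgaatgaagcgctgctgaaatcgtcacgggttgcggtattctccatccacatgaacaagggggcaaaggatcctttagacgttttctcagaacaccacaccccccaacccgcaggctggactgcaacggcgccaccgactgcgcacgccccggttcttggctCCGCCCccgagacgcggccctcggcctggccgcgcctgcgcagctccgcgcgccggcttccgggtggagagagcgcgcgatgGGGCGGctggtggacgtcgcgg
Maz (chr7:127026956-127027255, minus): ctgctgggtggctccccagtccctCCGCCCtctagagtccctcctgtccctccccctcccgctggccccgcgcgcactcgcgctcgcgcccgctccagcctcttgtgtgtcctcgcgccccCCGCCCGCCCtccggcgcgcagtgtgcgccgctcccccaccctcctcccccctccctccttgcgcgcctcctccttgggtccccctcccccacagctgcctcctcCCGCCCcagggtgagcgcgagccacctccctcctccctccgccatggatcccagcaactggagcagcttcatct

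The Ino80e window has no GC box, 23 CpG dinucleotides and 56.7% GC, while the window of its second start, not printed, has 2 GC boxes, 15 CpG and 56.7% GC. The Hirip3 window has 3 GC boxes, a pair of which overlap, with 27 CpG and 61.7% GC. Kctd13 has 2 GC boxes, 35 CpG and 65.3% GC, and Maz, at the first of its starts, has 4 GC boxes, 25 CpG and 74.3% GC. The set of RefSeq promoters used here was searched by symbol, and some neighbours, Mapk3, Doc2a and Sez6l2 among them, were not found in it. A window was found for 42 of the neighbours, using the first start site of each gene. The median of these 42 was 15.5 CpG and 57.7% GC, against 7 CpG and 52.7% GC over the 27025 promoters of the set. Unlike the neighbours, the 27025 were not selected to be of protein-coding genes. A GC box on either strand was present in 7 of 18 interval promoters and 12 of 23 flanking promoters, against 35.9% of all promoters. A match is a string of letters and not a bound site.

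Ino80e was raised in only some of the libraries labelled overexpression. It stood at 74.1, 23.4, 23.3 and 45.04 CPM in overexpression replicates 1 to 4, against 22.3, 19.5, 25.5 and 20.7 CPM in wild-type replicates 1 to 4. Replicates 2 and 3 therefore lie inside the wild-type range, and the directions below are those of the libraries labelled overexpression, not of a measured rise of Ino80e. The log2 fold change was 0.91 (SE 0.42, edgeR quasi-likelihood test, Benjamini-Hochberg adjusted p = 0.51), and the two-sided exact permutation p on the log2 scale was 0.114, with 0.0286 the lowest that 8 libraries in groups of 4 can give.

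Neither overlapping gene followed the pattern of Ino80e over the libraries. Doc2a stood at 32.8, 28.5, 31.9 and 28.4 CPM in overexpression replicates 1 to 4, against 27.7, 27.9, 24.9 and 27.7 CPM in wild type. All 4 overexpression libraries were above all 4 wild-type libraries, but replicate 3, where Ino80e was not raised, was nearly as high as replicate 1, and replicate 4, where Ino80e was raised, was the lowest of the group. Hirip3 stood at 28.7, 28.5, 31.0 and 32.2 CPM in the overexpression group, against 28.7, 26.5, 26.3 and 28.2 CPM in wild type, and the groups overlapped. The log2 fold changes of Doc2a (0.17, SE 0.074, edgeR adjusted p = 0.43) and Hirip3 (0.14, SE 0.071, edgeR adjusted p = 0.50) did not pass the threshold of an adjusted p under 0.05. The sources used here do not give the strand setting of the counting, so reads in the shared exon bases of Doc2a, Hirip3 and Ino80e may have been divided or dropped in an unknown way.

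**Figure D1:**
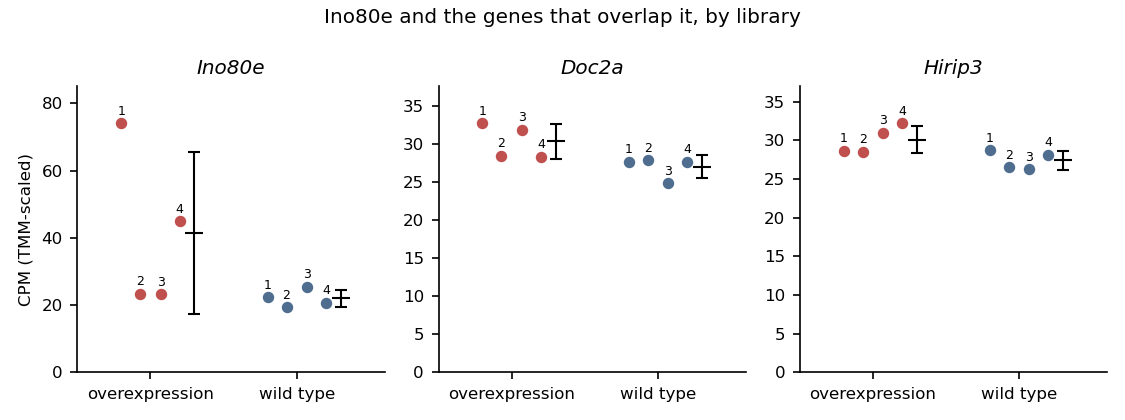
Level in CPM of Ino80e and of the neighbours that overlap it, overexpression libraries on the left and wild-type libraries on the right, with replicate numbers beside the points and mean ± SD (n = 4 each) as bars. Ino80e is high in overexpression replicates 1 and 4 (74.1 and 45.04 CPM), whereas Doc2a and Hirip3 stay between 24.9 and 32.8 CPM in all 8 libraries.

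The neighbourhood holds abundant transcripts of the cortex beside genes with almost no reads. A low-count filter kept 49 of the 57 genes, 23 of the 27 in the interval, 24 of the 27 in the flanks and 2 of the 3 others. On the RPKM scale, which divides CPM by the length of the merged exons in kb, the median wild-type level was 9.66 for the tested interval genes and 3.70 for the tested flanking genes, against 3.03 over the 17636 genes tested. Unlike the neighbours, the 17636 were not selected to be protein-coding. Aldoa, the glycolytic enzyme aldolase A, was highest with 523 ± 18.0 RPKM in the overexpression group and 510.1 ± 10.9 RPKM in wild type (SD, n = 4 each). Aldoa has processed copies in the genome, so its counts are uncertain. Sez6l2, a neuronal surface protein, followed with 95.3 ± 4.50 RPKM in the overexpression group and 90.1 ± 4.56 RPKM in wild type. Among the interval genes in wild type, Mapk3 (the kinase ERK1) at 52.7 ± 2.60, Ypel3 at 52.1 ± 4.54, Cdipt (phosphatidylinositol synthase) at 50.9 ± 3.42 and Maz (a zinc finger transcription factor) at 49.1 ± 2.28 RPKM came next, and each differed from its neighbour in this order by less than their spread. Kctd13 stood below them at 40.01 ± 2.20 RPKM. In the flanks the translation initiation factor gene Eif3c led with 66.3 ± 1.65 RPKM in the overexpression group and 67.5 ± 2.48 RPKM in wild type, above Atxn2l, a component of stress granules, and Tufm, the mitochondrial elongation factor.

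Several genes of leukocytes, muscle, gut and early embryo were at or near 0, though Coro1a, a coronin of leukocytes, was not (26.9 ± 1.71 RPKM in wild type). Zg16, a zymogen granule protein, and Pagr1b had 0 counts in all 8 libraries, which allows up to 0.0496 to 0.0668 CPM per library (3 counts of each library, counting error only). Lat, a signalling protein of T cells, summed to 18 counts over the overexpression libraries and 16 counts over the wild-type libraries. Il27, Spn (the leukocyte surface protein CD43) and 4930451I11Rik also missed the filter, at no more than 42 counts in either group. Mylpf, a myosin light chain of fast skeletal muscle, and Tbx6, a mesoderm transcription factor, passed it at under 1 CPM in nearly every library.

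Low counts of Prrt2 and Pagr1a go with shared annotation. Prrt2, a presynaptic membrane protein of neurons, is listed at 0.269, 0.248, 0.496 and 0.712 CPM in the overexpression libraries and at 0.134, 0.299, 0.657 and 0.178 CPM in wild type. Pagr1a is listed at 0 counts over the overexpression libraries and at 2 counts over the wild-type libraries. The long annotation Gm42742 lies over both on the same strand, and 92.4% of the exon bases of Prrt2 and 98.7% of those of Pagr1a are shared with another same-strand gene of the table. For no other listed interval gene did that share exceed 20%. The sources used here do not say how reads that match more than 1 gene were counted, so the levels of Prrt2, Pagr1a, Pagr1b and Gm42742 are uncertain and the part of the overlap in them was not tested.

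**Figure D2:**
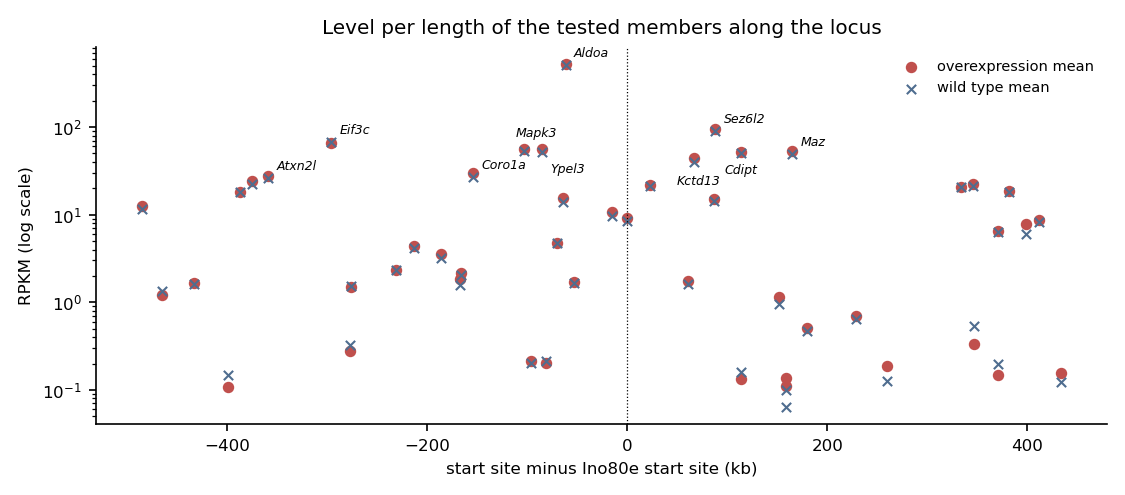
RPKM (log axis) of the 49 tested neighbours in the overexpression group (circles) and wild type (crosses), by distance of their start site from that of Ino80e in kb, genes of at least 25 RPKM in wild type named. Abundant and scarce genes alternate along the locus, from 510.1 RPKM for Aldoa down to 0.0639 RPKM for Gm42742 in wild type, and the group means nearly coincide for the abundant genes.

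The comparison of the libraries labelled overexpression with wild type asks whether the genes around Ino80e differ along with the group. None of the 49 passed an adjusted p under 0.05 in edgeR, where 0.034% of the 17636 genes tested did, and none passed in limma-voom or in DESeq2, which gave an adjusted p to 38 of them. At an unadjusted p under 0.05, 5 interval genes and 1 flanking gene were higher and none was lower, where 5.24% of all genes tested were higher and 5.43% lower. The 5 were Kctd13, Coro1a, Fam57b, Maz and Doc2a, and the flanking gene was Dctpp1. Without overexpression replicate 1 the interval count was 2, and without replicates 2 and 3, where Ino80e was not raised, it was also 2. These fits had fewer libraries, which bears on the counts. Without replicates 2 and 3, Doc2a was at 0.18 (SE 0.092, against 0.074 with all libraries) and Maz at 0.12 (SE 0.066, against 0.050). Kctd13 was then at 0.11 (SE 0.067, against 0.054). The flanking count was 0 without overexpression replicate 3 and 2 without overexpression replicate 2, without wild-type replicate 1 or without overexpression replicates 2 and 3. In bulk tissue, a change in the number of cells of a type and a change in RNA per cell cannot be told apart.

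Of the 8 tested interval genes of neuronal and signalling function, Kctd13 and Doc2a were higher at an unadjusted p under 0.05, where 5.24% of all genes tested were higher. Kctd13 (ENSMUSG00000030685, 126928879 to 126945631), which brings the small GTPase RhoA to the Cullin 3 ubiquitin ligase, stood at 107, 113, 118 and 108 CPM in overexpression replicates 1 to 4, against 104, 94.1, 105 and 95.5 CPM in wild type. The groups did not overlap, as was also the case for Doc2a and for Gm42742 (0.455 to 0.578 CPM against 0.198 to 0.356 CPM), where 2.82% of all genes tested did not overlap with the overexpression group higher. No neighbour lay without overlap below wild type, where 3.02% of all genes tested did. The log2 fold change of Kctd13 was 0.17 (SE 0.054, edgeR adjusted p = 0.31). Overexpression replicates 1 and 4, where Ino80e was raised, were the lowest of their group for Kctd13. Without overexpression replicates 2 and 3 its log2 fold change was 0.11 (SE 0.067). All 8 tested genes of this role were above 0, with a median of 0.079, but only 3 were with levels adjusted for GC content (median -0.021). The values were 0.078 (SE 0.062) for Mapk3, 0.081 (SE 0.050) for Sez6l2 and 0.046 (SE 0.047) for Taok2, a kinase of dendrite growth. The 2 lowest in this role were Ppp4c, the catalytic subunit of protein phosphatase 4, at 0.014 (SE 0.080), and Cdipt at 0.045 (SE 0.054).

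Genes of nuclear function had a median log2 fold change of 0.10 over 5 tested (4 above 0), or -0.0062 (2 above 0) with levels adjusted for GC content. Maz stood at 163, 159, 157 and 154 CPM in the overexpression libraries, against 141, 144, 156 and 143 CPM in wild type. Wild-type replicate 3 reached into the overexpression range and the log2 fold change was 0.12 (SE 0.050, edgeR adjusted p = 0.41). The log2 fold change was 0.11 (SE 0.065) for Ypel3 and 0.093 (SE 0.21) for Kif22, a mitotic kinesin. Tbx6 was the only tested interval gene below 0 (-0.10, SE 0.89), at 76 counts over the overexpression libraries and 81 over wild type. It had 18, 17, 17 and 24 counts in overexpression replicates 1 to 4, against 11, 4, 66 and 0 in wild-type replicates 1 to 4. Most of the wild-type counts thus came from replicate 3, and the other wild-type libraries lay below every overexpression library.

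The 6 tested genes of metabolism and lipids had a median of 0.063, all above 0, or -0.014 with 3 above 0 when adjusted for GC content. Among them, Fam57b, a membrane protein of sphingolipid metabolism, stood at 64.0, 60.9, 58.8 and 61.5 CPM in the overexpression libraries, against 54.4, 54.5, 59.9 and 53.04 CPM in wild type (log2 0.14, SE 0.055, edgeR adjusted p = 0.38). Only wild-type replicate 3 reached the overexpression range. Fam57b lies opposite both Aldoa annotations. The log2 fold change was 0.035 (SE 0.043) for Aldoa itself, and that of upstream Aldoa was 0.053 (SE 0.32), of Asphd1 0.064 (SE 0.074) and of Qprt, an enzyme of NAD synthesis, 0.54 (SE 0.50) from 104 counts over the overexpression libraries and 68 over wild type.

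Of the remaining interval genes, Coro1a (ENSMUSG00000030707, 126699773 to 126707787), an actin-binding coronin of leukocytes, stood at 87.7, 79.4, 86.4 and 79.9 CPM in the overexpression libraries, against 79.8, 69.4, 77.8 and 72.8 CPM in wild type (log2 0.15, SE 0.057, edgeR adjusted p = 0.36). The groups overlapped by less than 1 CPM. Summed microglia markers (Cx3cr1, P2ry12, Tmem119, Csf1r and Aif1) ran from 259 to 306 CPM in the overexpression group and from 243 to 278 CPM in wild type, with 3 of 5 above 0 and those 3 (Cx3cr1, Tmem119 and Csf1r) under an unadjusted p of 0.05, where 5.24% of all genes tested were higher, and their part in the value of Coro1a was not tested. Mvp, the major vault protein, stood at 9.77, 8.39, 8.79 and 7.87 CPM in the overexpression libraries, against 5.50, 6.43, 8.75 and 8.58 CPM in wild type, where replicates 1 and 2 were low (log2 0.25, SE 0.14, edgeR adjusted p = 0.54). Tmem219 (0.11, SE 0.17) and AI467606 (0.11, SE 0.30) were near the interval median with wide errors. Coro1a, Mvp, Tmem219 and AI467606, the 4 tested genes of immune, vault and secretory function, had a median of 0.13, all above 0. With levels adjusted for GC content their median was 0.044, with 4 above 0.

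**Figure D3:**
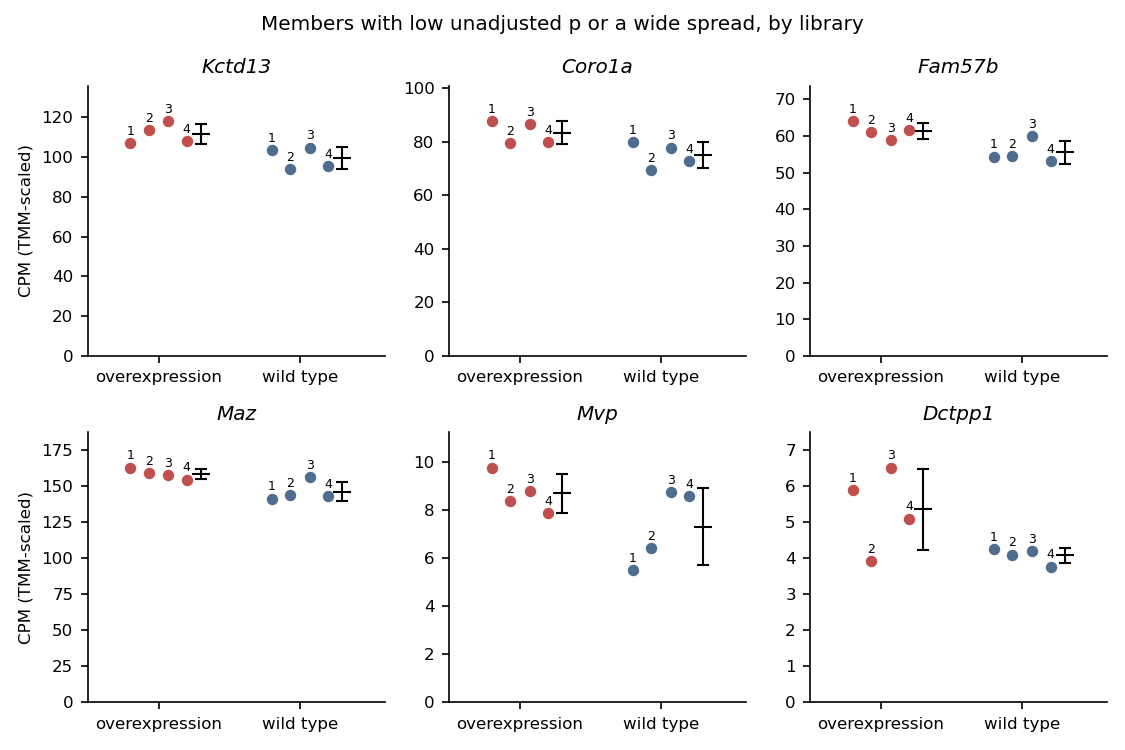
CPM in each library of 4 interval genes with an unadjusted p under 0.05, of the vault gene Mvp and of the flanking gene Dctpp1, overexpression on the left and wild type on the right, with replicate numbers and mean ± SD (n = 4 each). Of these 6, only Kctd13 has no overlap between groups (107 to 118 CPM against 94.1 to 105 CPM).

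In the flanks, values ran from -0.70 to 0.40 on the log2 scale. Dctpp1 (ENSMUSG00000042462, 127256959 to 127260709), a dCTP pyrophosphatase, stood at 5.89, 3.92, 6.51 and 5.10 CPM in the overexpression libraries, against 4.25, 4.10, 4.19 and 3.76 CPM in wild type (log2 0.40, SE 0.16, edgeR adjusted p = 0.40). Overexpression replicate 2 lay inside the wild-type range and the other replicates above it. The log2 fold change of Bola2, which acts with glutaredoxins in iron-sulphur handling, was 0.25 (SE 0.13), and Bola2 overlaps Slx1b and Coro1a on the other strand. Spns1, a lysosomal lipid transporter, was at 0.11 (SE 0.069), Tufm at 0.097 (SE 0.064), Atxn2l at 0.086 (SE 0.054), Tbc1d10b, a Rab GTPase-activating protein, at 0.083 (SE 0.053), and Eif3c at -0.026 (SE 0.047). The lowest was Mylpf at -0.70 (SE 0.44), from 74 counts over the overexpression libraries and 114 over wild type. The 7 tested genes of the distal human 16p11.2 interval, Sh2b1 and Atxn2l among them, had a median of 0.046 with 5 above 0, or 2 with levels adjusted for GC content. Just outside the window, Sbk1 was at 0.069 (SE 0.071) and Zfp768 at -0.18 (SE 0.11), and just inside it Itgal, an integrin of leukocytes, was at 0.34 (SE 0.33), while Lat was not tested.

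As a group, 22 of the 23 tested interval genes were above 0, with a median log2 fold change of 0.10, and 15 of the 24 tested flanking genes, with a median of 0.045. Over all 17636 genes tested, 50.5% were above 0 and the median was 0.0016. Among genes of at least 5 CPM, all 15 interval genes were above 0 (0.014 to 0.25) and 13 of 17 flanking genes were (-0.027 to 0.25), against 5582 of 11331 over all genes. Without overexpression replicates 2 and 3 the medians were 0.11 for the interval and 0.0031 for the flanks. Without wild-type replicate 4, the library high in choroid plexus markers, they were 0.091 and 0.074, and 4 interval genes and 1 flanking gene were higher at an unadjusted p under 0.05. The difference between interval and flanks was not tested. Distance from Ino80e gave no steady order: medians were 0.073 within 100 kb (14 genes), 0.13 from 100 to 200 kb (12 genes), -0.024 from 200 to 300 kb (7 genes) and 0.047 from 300 to 500 kb (16 genes). Across the 49 tested genes, Spearman's rho of fold change with distance was -0.20, a description of genes that share the same 8 libraries.

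The neighbours are rich in GC, and GC content moved with fold change in these libraries. Across 11326 genes of at least 5 CPM with a GC value, Spearman's rho of fold change with GC was 0.66 (0.042 with the offset described next), a description of genes that share the same libraries and not of replicates. Across the neighbours themselves rho was 0.19 over the 49 tested and 0.18 over the 32 of at least 5 CPM. The median transcript GC was 56.7% for tested interval genes and 55.3% for tested flanking genes, against 49.9% for all genes tested, which were not selected to be protein-coding. With an offset that takes out each library's trend of level on GC content, the median was 0.0082 for the interval (12 of 23 above 0) and -0.045 for the flanks (8 of 24 above 0), against -0.013 for all genes tested, of which 44.7% were above 0. The offset was fitted on these same libraries, so it also takes out any group difference that follows GC, whether technical or biological. The source of the GC trend was not tested. Of the 15 interval genes of at least 5 CPM, 6 were then above 0. None of the 49 was then under an unadjusted p of 0.05, where 2.0% of all genes were higher and 2.59% lower. Kctd13 was at 0.093 (SE 0.053), Coro1a at 0.048 (SE 0.054), Fam57b at 0.043 (SE 0.055), Doc2a at 0.042 (SE 0.075), Hirip3 at 0.069 (SE 0.069), Maz at -0.0062 (SE 0.053) and Dctpp1 at 0.29 (SE 0.16) with the offset. Of the genes given above, Aldoa, upstream Aldoa, Taok2, Asphd1, Sez6l2, Mapk3, Maz, Ypel3, Ppp4c, Cdipt, Sh2b1, Atxn2l, Tbc1d10b and, just outside the window, Sbk1 turned from above to below 0. Zfp768, also just outside it, moved further below 0 with the offset (-0.29, SE 0.11, edgeR unadjusted p = 0.012, adjusted p = 0.998).

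**Figure D4:**
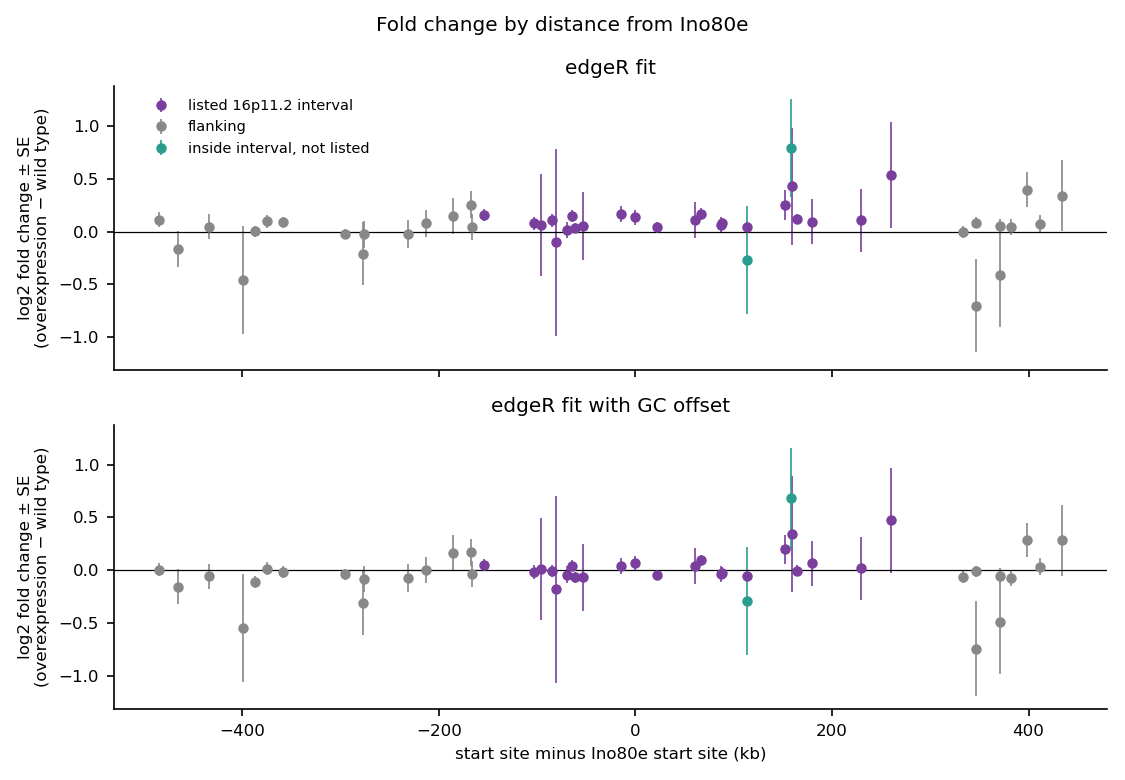
Log2 fold change ± SE of the 49 tested neighbours by distance of their start site from that of Ino80e in kb, without (upper) and with (lower) the GC offset, interval genes in purple, flanking genes in grey and the others in green. The interval genes sit slightly above 0 in the upper panel (median 0.10) and around 0 in the lower panel (median 0.0082).

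The shift of the interval was of like size in each library labelled overexpression. Over the 19 interval genes of at least 1 CPM, the median log2 difference from the wild-type mean was 0.093, 0.083, 0.13 and 0.095 in overexpression replicates 1 to 4, against 0.037, -0.038, 0.081 and -0.039 in wild-type replicates 1 to 4. Wild-type replicate 3 came close to the overexpression libraries. Overexpression replicates 2 and 3, where Ino80e was not raised, held both the lowest and the highest of the 4 values. With the GC-adjusted levels the medians were 0.013, 0.012, 0.015 and -0.019 in the overexpression libraries, against 0.049, 0.014, 0.030 and -0.070 in wild type. Over the 20 flanking genes of at least 1 CPM they were 0.018, 0.053, 0.067 and 0.011 in the overexpression libraries, against -0.0094, -0.060, 0.0019 and 0.015 in wild type, before the adjustment. After it they were -0.031, -0.020, 0.0036 and -0.069 in the overexpression libraries, against -0.0015, 0.0089, -0.023 and -0.010 in wild type.

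**Figure D5:**
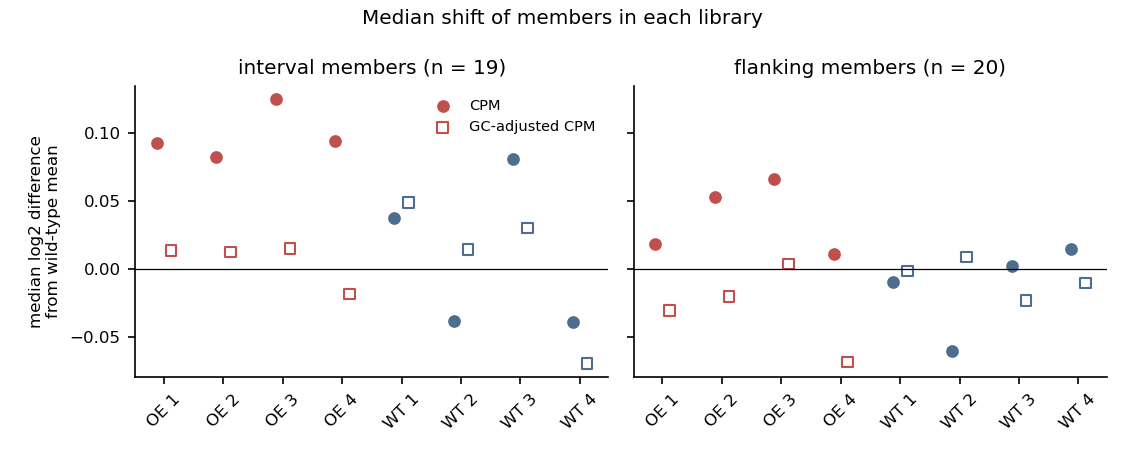
Median log2 difference from the wild-type mean in each library, over 19 interval genes (left) and 20 flanking genes (right) of at least 1 CPM, from CPM (filled circles) and GC-adjusted CPM (open squares), overexpression in red and wild type in blue. The filled points of the interval lie at 0.083 to 0.13 in the overexpression libraries, and the open ones at -0.019 to 0.015, within the wild-type range.

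Genes elsewhere in the genome whose products work with those of the locus did not move one way. Of 21 such genes, all tested, 10 were above 0 with a median log2 fold change of -0.025, and none passed an adjusted p under 0.05 in edgeR. At an unadjusted p under 0.05, the chromatin genes Kmt2d (0.13, SE 0.053) and Paxip1 (0.13, SE 0.062), whose products form a complex with PAGR1, were higher, and Ppp4r2 (-0.15, SE 0.067), Ppp4r3b (-0.17, SE 0.069) and Cul3 were lower, against 5.24% of all genes tested higher and 5.43% lower. Cul3, the ubiquitin ligase scaffold that KCTD13 binds, stood at 128, 135, 123 and 126 CPM in the overexpression libraries, against 144, 168, 132 and 142 CPM in wild type (log2 -0.20, SE 0.061, edgeR adjusted p = 0.31). With the GC offset Cul3 was at -0.079 (SE 0.056), Kmt2d at 0.019 (SE 0.054), Paxip1 at 0.12 (SE 0.061), Ppp4r2 at -0.048 (SE 0.061) and Ppp4r3b at -0.063 (SE 0.062), and none of these 5 was under an unadjusted p of 0.05.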

How the data were processed

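Per the labels' protocols, poly(A) RNA went into dUTP libraries that keep strand. The authors deposited raw read counts per Ensembl gene, 1 column per library, and the submitters' processing notes name Trimmomatic 0.39, STAR 2.7.10 and featureCounts 2.0.3 with mm10 and GRCm38. The sources used here do not give the strand setting, annotation release or handling of multi-mapped reads.

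Genes were filtered with filterByExpr, TMM-scaled and tested with edgeR 4.0.16 (robust quasi-likelihood, R 4.3.3), with Benjamini-Hochberg adjustment over all 17636 genes tested. Log2 fold changes are overexpression minus wild type. The GC offset was fitted per library as a natural spline (5 degrees of freedom) of log2 level against transcript GC. No library was a copy of another (chi-square per degree of freedom at least 9.53 between any pair). Depth was 44762378 to 60490153 counts.

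The members, lists and alternatives were chosen with earlier results of these data known. Named genes were Ino80e, genes overlapping it, the 5 nearest per side, the 6 lowest p and 3 highest RPKM in interval and flanks, and up to 4 per role. Others named, among them Gm42742, Prrt2, Pagr1a and Tbx6, were chosen after their values were seen. The 3 unlisted genes inside the interval were first planned as flanking and set apart after their positions were seen. Values of 1 neighbour are not reported here. Alternatives were RLE and upper-quartile scaling, 2 other filters, DESeq2 1.42.0, limma-voom 3.58.1, no robust estimation, a replicate block, the GC offset and left-out libraries.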

Additional observations from a re-analysis of the deposited data

Results flagged for a closer look

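A library far from the other 3 of its group was found for 3 of the 54 groups looked at, where chance gives about 1 in 20. Tufm stood at 58.1 CPM in overexpression replicate 3, against 47.9 to 49.6 CPM in the other overexpression libraries. Doc2a stood at 24.9 CPM in wild-type replicate 3, against 27.7 to 27.9 CPM in the other wild-type libraries. Maz stood at 156 CPM in wild-type replicate 3, against 141 to 144 CPM in the other wild-type libraries. Without wild-type replicate 3, the edgeR unadjusted p of Doc2a was 0.11, against 0.032 with all libraries. That of Maz was 0.0070, against 0.027 with all libraries.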

How the results depend on the processing

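No interval or flanking gene passed an adjusted p under 0.05 in any of the 18 alternatives, though DESeq2 gave no adjusted p to 11 of the 49 tested neighbours, and none was lower at an unadjusted p under 0.05. The GC offset moved the interval median from 0.10 to 0.0082 and the flank median from 0.045 to -0.045, and left 0 genes higher at an unadjusted p under 0.05 in either, against 5 and 1. Without overexpression replicates 2 and 3, 2 interval and 2 flanking genes were higher at an unadjusted p under 0.05, the flank median was 0.0031 and the interval median 0.11. With single libraries left out, the count of higher interval genes was 2 to 7 (2 without overexpression replicate 1) and of higher flanking genes 0 to 2 (0 without overexpression replicate 3, 2 without overexpression replicate 2 or wild-type replicate 1), the interval median 0.080 to 0.14, the flank median 0.016 to 0.074 and the log2 fold change of Ino80e 0.47 to 1.11. Counting the 3 unlisted genes as flanking, chosen after seeing the data, gave a flank median of 0.045. The replicate number as a block gave 5 higher interval genes and medians of 0.11 and 0.051, and changed no call. Same-numbered libraries did not deviate together (correlations of -0.071 to 0.077 over 11331 genes), so the numbers were not taken as pairs. Of 466 values of 26 named genes under these alternatives, 15 had a changed sign, 10 of them with the GC offset. Where a value moved, the cause was not tested.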
